A study of Homo sapiens with 13 samples.

Results

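The alternative and reference alleles of variants linked to adolescent idiopathic scoliosis were compared for their activity in TC28a2, an immortalized human chondrocyte line. Members were all named pairs of a reference and an alternative element that differ at one variant, as far as their names tell, with at least 10 nonzero DNA barcode slots for each allele in each replicate. Of 4468 listed pairs, 4399 met this minimum, among 7236 different elements counted in this line. The pairs comprised 4271 of 4334 listed single-base substitutions, 75 of 79 deletions and 53 of 55 insertions. The listed pairs lie at 1579 positions in 25 loci. At 1444 positions the library held all 3 alternative bases, and at 1422 of these the reference and the 3 alternatives all met the minimum.

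The study measured a lentiviral massively parallel reporter assay (lentiMPRA) library of variants associated with scoliosis in 2 human chondrocyte lines. All 6 TC28a2 samples used here, 3 of DNA and 3 of RNA, came from cells infected with the same library and incubated for 48 hours, with no other treatment. SW1353, a chondrosarcoma line infected and incubated in the same way, gave 3 DNA and 3 RNA samples, which are used only as a second measurement of the same pairs. The labels number the replicates and do not say whether they were separate cultures. The p-values thus measure only the spread between the columns of counts labelled as replicates, which may be technical. The assay counts barcodes of a designed library and no cellular transcripts, so the labelled cell type could not be checked against marker genes.

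In a lentiMPRA, each tested element is placed next to a minimal promoter and a transcribed barcode, and the construct is inserted into the genome by a lentivirus. Activity is read as barcode RNA per barcode DNA of an element. Most variants found by genome-wide association lie outside coding sequence, and a single base can change the binding of a transcription factor to an enhancer. A reporter with one base exchanged measures the change in activity, not in binding, outside the native chromosomal position of the element. A transition exchanges a purine for a purine or a pyrimidine for a pyrimidine, and a transversion exchanges one kind for the other, so each position has 1 transition and 2 transversions.

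The TC28a2 DNA libraries held 5523658 to 5738307 counts and the RNA libraries 22048832 to 22212124. An allele had a median of 168 nonzero DNA slots and 201 nonzero RNA slots per replicate. Each allele and replicate has at most 500 slots, and 1156 of 6047 allele elements (19.1%) reached the last one, where the file stops. The same slot of different replicates carried related counts near the start of an element, with correlations of 0.174 to 0.297 over DNA slots 1 to 20 of 2098 alternative elements. Over slots 51 to 200, slot by slot values of replicates 1 and 3 correlated at 0.0653, and at 0.186 when replicate 1 was read 1 slot further along. The columns named for one replicate may hold values of another in later slots, which was not tested. A fit without one replicate would then not leave out exactly 1 sample. Results were also computed from slots 1 to 20 alone, and this value is given beside each named pair that it turned or moved by more than 1.5 times. The named pairs A82228712G, T21858742G, C82224178G, T55764931C and G222761682T lacked 10 nonzero DNA slots there, so they have no such value.

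Activity is given as a level, the log2 ratio of RNA to DNA of the slot sums minus the median of 191 scrambled control elements of the same replicate. A level of 0 thus equals the typical scrambled element. An allele effect is the difference of 2 levels, alternative minus reference, on the log2 scale. Effects were tested with edgeR's quasi-likelihood test of the interaction between allele and RNA, with Benjamini-Hochberg adjustment over all 4399 pairs.

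In TC28a2 none of the 4271 substitutions passed an adjusted p of 0.05 by edgeR. One pair, a 1-base deletion in the FTO locus, passed an adjusted p of 0.05 (0.0227% of the pairs tested). At an unadjusted p under 0.05 there were 116 pairs (2.64%), with 58 alternatives higher (1.32%) and 58 lower (1.32%). That share is below the one such a threshold would pass without any allele effect. The effects centred on -0.00 with an SD of 0.243 over pairs, and the median standard error of an effect was 0.235. Over the whole set, 2168 alternatives were above their reference and 2231 below. From the 5th to the 95th percentile the effects ran from -0.40 to 0.39, and 11 pairs lay beyond 1 in size, 8 upward and 3 downward. Apart from the deletion, the highest effect was 1.23 and the lowest was -1.38.

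The effects of a pair in different replicates were nearly unrelated. Across the 4399 pairs the correlation of effects was -0.07 between replicates 1 and 2, -0.07 between 1 and 3 and -0.09 between 2 and 3. The levels of the single alleles, which carry the activity of the whole element, correlated at 0.440 to 0.458 between replicates. From slots 1 to 20 alone, the effects of 3970 pairs correlated at -0.03 to 0.03. The same direction in 3 of 3 replicates was seen in 935 pairs (21.3%), and in 296 pairs (6.73%) the replicates of the alleles did not overlap. Neither share was above what replicates with unrelated values would give. Both lines gave the same sign in 53.4% of 4393 pairs.

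The precision of an effect followed the number of barcodes. In the 527 pairs whose poorer allele had 10 to 49 DNA slots the median standard error was 0.341, and in the 1296 pairs with 200 or more it was 0.176. The share of pairs at an unadjusted p under 0.05 was 1.52% in the first group and 3.86% in the second. Pairs with an allele at slot 500 are the best covered, with a median standard error of 0.170 over 977 pairs, and 4.40% of them had an unadjusted p under 0.05. The remaining 3422 pairs had a median standard error of 0.253 and a share of 2.13%. By activity, the share was 2.24% in pairs whose mean level was below 0 and 4.82% in the 83 pairs with a mean level above 1. The median absolute effect over all pairs, 0.138, was below the median standard error of 0.235, so it could not be told apart from error in a typical pair.

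The deletion del53822169T removes 1 T at chromosome 16, position 53822169 (hg19, counted from 1), in the locus of FTO, a demethylase of RNA. The reference element had levels of 0.74, 0.98 and 1.07 in replicates 1 to 3. The element with the deletion had levels of 2.78, 2.79 and 2.49. All 3 values of the deletion were more than 1 above all values of the reference.

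The effect of this deletion was 1.76 (SE 0.132; edgeR adjusted p = 1.88e-06), a 3.38-fold higher activity, and it was 1.78 in SW1353 (SE 0.164; edgeR adjusted p = 0.000664). The nearest reference elements of the library belong to variant positions 14 and 27 bp away. Their mean levels were 1.14 ± 0.246 and 1.29 ± 0.159, against 0.929 ± 0.170 for the reference of the deletion (SD, n = 3). The 6 substitutions tested at those 2 positions had effects between -0.30 and 0.09. One of its alleles was at slot 500, so the pair was not tested when such alleles were left out, and from slots 1 to 20 its effect was 1.39 (SE 0.565; edgeR adjusted p = 0.995). Over the alternatives that tested it, the adjusted p ran from 3.01e-25 to this value, and the effect was 1.62 to 1.93 with one replicate left out.

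The strongest substitution by p-value was C208222284G, at chromosome 1 position 208222284 in the locus of PLXNA2, a receptor for semaphorins in axon guidance. Its reference element had levels of 1.15, 1.15 and 1.12, and the alternative 1.68, 1.96 and 1.73. The alleles did not overlap, and the effect was 0.65 (SE 0.121; unadjusted p = 6.55e-05, adjusted p = 0.144 by edgeR), a 1.57-fold higher activity. DESeq2 gave an adjusted p of 0.0176 for this pair, and edgeR without the replicate block 0.0359, while the highest adjusted p over the alternatives was 1.00. In SW1353 the effect was 0.33 (SE 0.153; unadjusted p = 0.0524 by edgeR), with replicate values of -0.15, 0.59 and 0.55.

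The other bases at this position were also above the reference. C208222284T had levels of 1.51, 1.34 and 1.63, and C208222284A had levels of 1.36, 1.47 and 1.20. No value of any alternative was below the highest of the reference. The mean of the 3 alternatives was 0.40 above the reference (SE 0.102; unadjusted p = 0.000529, adjusted p = 0.376 by edgeR). The 3 alternatives had an unadjusted p of 0.00488 for a difference among themselves (edgeR adjusted p = 1.00), in the order G, T and A. In SW1353 the mean of the alternatives was 0.29 above the reference (edgeR unadjusted p = 0.0247).

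The 24 substitutions and deletions of lowest p-value were taken as 12 with a higher and 12 with a lower alternative, among pairs with one direction in 3 of 3 replicates. Their TC28a2 values chose them and are a description only. SW1353, whose samples did not enter the choice, gave the same direction in 11 of the 12 higher pairs, with a median effect of 0.15 against 0.66 in TC28a2. It gave the same direction in 9 of the 12 lower pairs, with a median of -0.25 against -0.53. Over all 4393 pairs tested in both lines, the sign was the same in 53.4%. In SW1353, 2 of the higher and 1 of the lower pairs had an unadjusted p under 0.05 by edgeR, against 3.27% of its 4400 pairs, 1.7% upward and 1.57% downward. The higher pairs with such a p were del53822169T, the pair called in TC28a2, and A142861491G. The 12 higher pairs lie at 10 positions and the 12 lower at 11, so some share a reference element. Among the higher pairs 8 had an allele at slot 500, among the lower 5.

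Among the higher alternatives, 3 belong to the locus of ADGRG6, an adhesion G protein-coupled receptor of cartilage and peripheral nerve. A142861491G had reference levels of -0.22, -0.10 and -0.34 and alternative levels of 0.26, 0.37 and 0.31. The alleles did not overlap, and all alternative values were above 0 while all reference values were below it. The effect was 0.53 (SE 0.155; edgeR unadjusted p = 0.00342), and in SW1353 it was 0.39 (SE 0.158; edgeR unadjusted p = 0.0311). From slots 1 to 20 in TC28a2 it was 1.20 (SE 0.436). G142658162C had reference levels of 0.34, 0.37 and 0.27 and alternative levels of 0.77, 1.09 and 0.77, and its effect in SW1353 was 0.04. Its TC28a2 effect was 0.56 (SE 0.144), and 0.23 (SE 0.372) from slots 1 to 20. The third, C142703669T, is given with the other bases of its position.

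T102979207A lies in the locus of LBX1, a homeobox gene of muscle precursors and dorsal spinal cord neurons. The reference levels were -0.05, -0.42 and -0.07 and the alternative levels 1.45, 0.77 and 0.42. The alternative was above the reference throughout but spread over more than 1 unit, with an effect of 1.07 (SE 0.283; edgeR unadjusted p = 0.00164) from 69 DNA slots in the poorer allele. The effect in SW1353 was 0.12 (SE 0.371), and from slots 1 to 20 in TC28a2 it was -0.33 (SE 0.447). Without the highest slot of each allele and replicate the TC28a2 effect was 0.43 (SE 0.243).

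Other pairs with higher alternatives stood in loci of different function. In the FTO locus, T53830491C had reference levels of 0.23, -0.37 and 0.30 and alternative levels of 0.70, 0.92 and 1.67, and its effect in SW1353 was -0.21. Its TC28a2 effect was 1.05 (SE 0.314), and 0.60 (SE 0.281) without the highest slot. That pair was the only one of the 12 with the opposite sign in SW1353. In the locus of CDH13, which encodes a cadherin without a cytoplasmic domain, A82898667C had reference levels of -0.16, 0.12 and -0.35 and alternative levels of 0.38, 0.73 and 0.52, while slots 1 to 20 gave an effect of -0.28 (SE 0.530). T228326492C, in the locus of the signalling ligands WNT9A and WNT3A, had 431 DNA slots in the poorer allele and an effect of 0.34 (SE 0.111), which was -0.086 (SE 0.425) from slots 1 to 20.

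Among the lower alternatives, A16226826C had the largest effect. It lies in the locus of SOX6, a transcription factor that acts with SOX9 in cartilage formation. The reference levels were 0.98, 0.27 and 0.95 and the alternative levels -0.41, -0.11 and 0.08. The alternative was below the reference in every replicate by effects of -1.38, -0.38 and -0.86, with a fitted effect of -0.88 (SE 0.276; edgeR unadjusted p = 0.00575) in TC28a2 and -0.54 (SE 0.274; edgeR unadjusted p = 0.0715) in SW1353, where all 3 replicates were negative. In TC28a2 it was -0.56 (SE 0.251) without the highest slot and -0.36 (SE 0.442) from slots 1 to 20.

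The PAX1 locus, named for a transcription factor of the sclerotome from which vertebrae form, gave 3 of the 12 lower pairs. T21918213A had an effect of -0.53 (SE 0.168), T21858742G also of -0.53 (SE 0.185) and G21879734T of -0.39 (SE 0.138). Their SW1353 effects were -0.23, 0.29 and 0.06, so that 1 of 3 kept its direction there. The effect of T21918213A was -0.34 (SE 0.162) without the highest slot and 0.12 (SE 0.395) from slots 1 to 20. With limma on means per nonzero slot, that of G21879734T was -0.22 (SE 0.139).

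On chromosome 11, in the locus at 82052822 to 82258960, 3 lower pairs were named. T82114879C had reference levels of 1.17, 1.06 and 1.08 and alternative levels of 0.65, 0.73 and 0.87. The alleles of this pair did not overlap. Its effect was -0.35 (SE 0.125) in TC28a2 and -0.28 (SE 0.125; edgeR unadjusted p = 0.0483) in SW1353. In TC28a2 it was -0.22 (SE 0.133) without the highest slot and 0.019 (SE 0.400) from slots 1 to 20. The deletion del82201994T had an effect of -0.51 (SE 0.175), and of -0.97 (SE 0.485) from slots 1 to 20, with SW1353 replicates of 0.30, -0.24 and -1.34. A82228712G had an effect of -0.60 (SE 0.225), which was -0.36 without replicate 1 (SE 0.265) and also without the highest slot (SE 0.196), and of 0.05 in SW1353.

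The remaining lower pairs were G222761682T at -0.34 (SE 0.124) in the locus of EPHA4, an ephrin receptor, and PAX3, a transcription factor of the dorsal neural tube and muscle precursors, G1257715C at -0.46 (SE 0.170) in the locus of the somite homeobox gene UNCX, and T55764931C at -0.76 (SE 0.285) on chromosome 5. T55764931C had 47 DNA slots in its poorer allele, and the other 2 had 350 and 304. SW1353 gave -0.07, -0.12 and -0.49 for these 3 pairs. In TC28a2, G1257715C was -0.71 (SE 0.409) from slots 1 to 20, and T55764931C was -0.44 (SE 0.268) without the highest slot.

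Because the 3 alternatives of a position are measured against 1 reference element, their effects are not independent. Across the 1422 complete positions the effects of different alternatives correlated at 0.497 to 0.520, as a description of values that share the reference's error. The SD of an alternative minus its reference was 0.241, and that of one alternative minus another was 0.239. The medians of the absolute differences were 0.138 and 0.139. By these medians an alternative was about as far from its reference as from another alternative of the same position. Both medians lay below the median standard errors, 0.235 over all substitutions and 0.244 between alternatives. The 4 elements of a position spanned a median of 0.289, while the mean levels of positions had an SD of 0.328.

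All 3 alternatives were above the reference at 352 positions (24.8%), all 3 below at 375 (26.4%), and of mixed direction at 695 (48.9%). The reference was the highest of the 4 elements at 375 positions and the lowest at 352. The transition was highest at 355 and lowest at 361, the transversions between A and T or between C and G at 359 and 336, and those between A and C or between G and T at 333 and 373. Each of the 4 elements thus ranked first at 23.4% to 26.4% of positions. The mean levels were 0.249 for the reference and 0.252, 0.252 and 0.246 for the alternatives in that order.

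No position passed an adjusted p of 0.05 in a test of the 3 alternatives against each other (0% of 1422, edgeR), and 36 (2.53%) had an unadjusted p under 0.05. The same test called none with DESeq2, where 45 positions had such a p, and none with limma, where 38 did. None was called for the mean of the alternatives against the reference (0%), with 49 (3.45%) at an unadjusted p under 0.05 by edgeR, 54 by DESeq2 and 42 by limma. The single comparisons between 2 alternatives gave 0 calls by edgeR among 4266 (0%) and 109 (2.56%) at an unadjusted p under 0.05. In SW1353 the test among alternatives called 1 position (0.0703%) and had 59 (4.15%) at an unadjusted p under 0.05. Its comparisons between 2 alternatives gave 1 call (0.0234%), with 4.08% at an unadjusted p under 0.05.

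At 1327 positions no alternative had an unadjusted p under 0.05 against the reference, at 78 there was 1, at 15 there were 2 and at 2 positions all 3 did. At each of the 17 positions with 2 or 3, all 3 alternatives lay on the same side of the reference. These comparisons share their reference, so positions with several low p-values are selected for a reference away from its alternatives.

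One of the 2 positions is A16694774 on chromosome 9, in the locus of BNC2, a zinc finger gene. The reference had levels of 1.37, 1.08 and 0.67. A16694774G had 0.47, 0.33 and 0.76, A16694774T had 0.21, 0.40 and 0.09, and A16694774C had 0.54, 0.28 and -0.08. The reference was above every alternative in replicates 1 and 2, and below A16694774G in the third.

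The mean of the BNC2 alternatives was -0.71 relative to the reference (SE 0.201; unadjusted p = 0.00154, adjusted p = 0.731 by edgeR), and -0.80 in SW1353 (edgeR unadjusted p = 0.0447). In SW1353, replicate 2 carried most of this for the named alternatives, with replicate effects of 0.03, -2.53 and -0.13 for A16694774T and -0.37, -2.33 and 0.22 for A16694774C. In TC28a2, A16694774T had an effect of -0.81 (SE 0.241) and A16694774C of -0.79 (SE 0.254). Without the highest slot these were -0.43 (SE 0.216) and -0.36 (SE 0.225), and from slots 1 to 20 they were -0.33 (SE 0.421) and -0.22 (SE 0.471). Between the alternatives no difference was detected (edgeR unadjusted p = 0.423). The reference element of the nearest position, 62 bp away, had a level of 0.325 ± 0.246 (SD, n = 3), close to the alternatives and below the 1.04 ± 0.350 (SD, n = 3) of this reference. Control elements whose names give an interval span 200 bp. The length of the variant elements and the place of the variant in them are not given, so their overlap is not known.

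The other is C142703669 on chromosome 6, in the ADGRG6 locus. The reference had levels of 0.12, -0.01 and -0.03. C142703669T had 0.23, 0.15 and 0.17, C142703669G had 0.18, 0.09 and 0.15, and C142703669A had 0.19, 0.09 and 0.13. Within each replicate every alternative was above the reference, although its first replicate reached the lower values of C142703669G and C142703669A.

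The mean of these alternatives was 0.128 above the reference (SE 0.0286; unadjusted p = 0.000119, adjusted p = 0.170 by edgeR), a small effect measured with the deepest counts of the library. In SW1353 it was 0.156 (edgeR unadjusted p = 0.00251). The 4 elements held 120 to 146 DNA counts per nonzero slot, where the median allele element held 3.56 and the highest element of any other position 17.6. Without replicate 1 the adjusted p was 0.0141, and it was 0.0280 without the highest slot and 0.0297 with library totals in place of TMM scaling. It was 0.987 without replicate 2, 0.971 without replicate 3 and 0.998 with DESeq2. With limma on the log2 ratios it was 0.999 for the same mean (SE 0.135), and from slots 1 to 20 the difference was 0.05 (SE 0.223). With limma on means per nonzero slot it was 0.067 (SE 0.144).

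A further position of low p-value for the reference was C82224178 on chromosome 11. Its reference had levels of -0.51, -1.40 and -0.40, and the alternatives were 0.91 above it on average (SE 0.296; edgeR unadjusted p = 0.00480). C82224178G and C82224178A, with effects of 1.08 and 0.94, did not overlap the reference, while C82224178T at -0.91, 0.66 and 0.07 did. With limma on means per nonzero slot the effects of the first 2 were 0.49 (SE 0.271) and 0.36 (SE 0.182). In SW1353 the mean difference was 0.06 (edgeR unadjusted p = 0.867). Of the 4 positions with the lowest p-values in this test, the PLXNA2, BNC2 and ADGRG6 positions had the same direction and an unadjusted p under 0.05 in SW1353, where 3.23% of positions had such a p, with replicate 2 carrying most of the value for 2 BNC2 alternatives.

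The positions of lowest p-value among alternatives were chosen for that difference, and their values are a description. At A3136331 on chromosome 8, in the locus of CSMD1, A3136331C had levels of 1.32, 0.81 and 1.37, A3136331G had 0.75, 1.00 and 0.62, and A3136331T had 0.63, 0.42 and 0.65, around a reference of 0.94, 0.90 and 0.92. The reference lay between its alternatives, and the edgeR unadjusted p among them was 0.00339 in TC28a2 and 0.462 in SW1353. At T102979207 in the LBX1 locus, T102979207A stood above T102979207C and T102979207G, whose mean levels of 0.06 ± 0.370 and -0.10 ± 0.385 (SD, n = 3) were near the reference. At G142648235 in the ADGRG6 locus, G142648235T had levels of 0.83, 1.17 and 0.39 while G142648235A had 0.04, -0.46 and -0.28. None of the 4 positions of lowest p-value in this test, the PLXNA2 position among them, had an unadjusted p under 0.05 in SW1353 by edgeR.

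The mean effects of transitions and transversions differed by less than the spread between replicates. The mean effect of transitions over positions was 0.0024 ± 0.0042 (SD, n = 3 replicates). Transversions between A and T or C and G averaged 0.0026 ± 0.0195 and those between A and C or G and T -0.0030 ± 0.0229 (SD, n = 3). Their shares at an unadjusted p under 0.05 were 37 of 1422 (2.6%), 42 of 1425 (2.95%) and 35 of 1424 (2.46%), beside 2.64% of all pairs.

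Within positions, the transition minus the mean of its 2 transversions was -0.0127, 0.0028 and 0.0179 in replicates 1 to 3. The mean of 0.0027 ± 0.0153 (SD, n = 3) had an exact two-sided sign-flip p of 0.75, where 3 replicates cannot go below 0.25. In SW1353 it was -0.0025 ± 0.0057 (SD, n = 3). The transition was the higher at 691 of 1422 positions (48.6%). Position by position, edgeR called none (0%), with 37 (2.6%) at an unadjusted p under 0.05, 50 by DESeq2 and 42 by limma.

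The positions of lowest p-value in that test went in both directions. C82101713T on chromosome 11 had levels of 1.12, 0.65 and 1.80 and was 0.76 above the mean of C82101713G and C82101713A (SE 0.226). T60852085C in the BCL2 locus was 0.65 above its transversions (SE 0.197), with 1 high replicate among levels of 0.05, 1.13 and 0.08. T21884832C in the PAX1 locus was lower than its transversions, with a difference of -0.40 (SE 0.131), and so was C1258248T in the UNCX locus, at -0.76 (SE 0.252). In SW1353 the 4 differences were -0.01, 0.19, -0.17 and 0.07, and none had an unadjusted p under 0.05 by edgeR, which 4.64% of positions had there.

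The 1312 pairs that gained a G or C averaged -0.0030, -0.0124 and -0.0097 in the 3 replicates, a mean of -0.0084 ± 0.0048 (SD, n = 3), below 0 in each replicate. It was 0.0177 from slots 1 to 20, and -0.0030 ± 0.0124 (SD, n = 3) in SW1353. The 1534 pairs that lost one averaged 0.0067 ± 0.0190 (SD, n = 3). Of the 12 kinds of base change, the largest mean was -0.0240 ± 0.0355 (SD, n = 3) for T to G. Over all positions, elements with A, C, G or T at the variant differed from the mean of the 4 by 0.0027, -0.0019, -0.0040 and 0.0032.

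Insertions had a mean effect below 0 in each TC28a2 replicate, while their SW1353 mean differed from 0 by less than the spread between replicates. The difference between the lines was not tested. The 53 insertions averaged -0.06, -0.12 and -0.06 in replicates 1 to 3, a mean of -0.0816 ± 0.0358 (SD, n = 3), with 20 above 0 and none at an unadjusted p under 0.05 by edgeR. In SW1353 the mean of 52 insertions was 0.0236 ± 0.0599 (SD, n = 3), with replicates of 0.01, 0.09 and -0.03. The 24 insertions of 2 or more bases averaged -0.102 ± 0.0153 and the 29 of 1 base -0.0650 ± 0.0530 (SD, n = 3). The 75 deletions averaged -0.0036 ± 0.0398, and without del53822169T the other 74 averaged -0.0274 ± 0.0383 (SD, n = 3). In SW1353 the 76 deletions averaged -0.0550 ± 0.0848, and without del53822169T the other 75 averaged -0.0795 ± 0.0813 (SD, n = 3).

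By locus, the pairs at an unadjusted p under 0.05 were most frequent, among loci with over 100 tested pairs, at UNCX, with 10 of 129 (7.75%, at 9 positions), of which 8 were lower. The ADGRG6 locus had 11 of 230 (4.78%, at 8 positions), of which 10 were higher, and 3 of these were the alternatives of C142703669. The PAX1 locus, with the most tested pairs, had 13 of 741 (1.75%, at 13 positions), with 6 higher and 7 lower. Over all loci the share was 2.64%, with equal numbers in each direction. The median effect was -0.02 at UNCX, 0.02 at ADGRG6 and -0.00 at PAX1, and the SDs of 0.216, 0.244 and 0.228 over pairs were near the 0.243 of all pairs. UNCX pairs were measured more precisely, with a median standard error of 0.182, against 0.229 at ADGRG6, 0.233 at PAX1 and 0.235 over all pairs.

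Grouped by the kind of gene near the locus, loci of transcription factors (LBX1, SOX6, SOX9, EPHA4 and PAX3, PAX1, TBX1, UNCX, CREB5 and BNC2) had 41 of 1466 pairs (2.80%) at an unadjusted p under 0.05, 14 higher and 27 lower, with a median effect of -0.01. Loci of matrix and adhesion genes (CDH13, COL10A1 and NT5DC1, and ADGRG6) had 21 of 678 (3.10%), 18 higher and 3 lower, with a median effect of 0.01. Loci of guidance and signalling genes (PLXNA2, WNT9A and WNT3A, and EPHA4 and PAX3) had 13 of 264 (4.92%), 7 higher and 6 lower, with a median of 0.01. Apart from the FTO deletion, which is in no list, no pair of any locus passed the adjusted threshold, and no locus was tested as a set. Since alternatives share references, the 41 transcription factor pairs lie at 36 positions, the 21 matrix and adhesion pairs at 16 and the 13 guidance pairs at 10. Of the 18 higher matrix and adhesion pairs, 10 are in the ADGRG6 locus.

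The minimum of 10 DNA slots decided little. Just inside it, A53818813G had levels spread from -0.76 to 2.47 for the alternative, with an effect of -0.66 (SE 0.599), while A82879912C and A82879912G had effects of -0.03 (SE 0.379) and 0.46 (SE 0.367). Just outside, with 9 slots, del60856422A had replicate effects of 0.62, -0.37 and 1.28, G21979109A of -0.05, 0.46 and 0.66, and G21979109T of -0.53, -0.40 and 0.30. The standard errors of the pairs just inside are above the median of 0.235 over all tested pairs. The pairs just outside were not tested at this minimum.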

How the data were processed

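The values are counts per barcode slot of DNA and RNA, deposited as whole numbers without normalization; per the file headers each column names a replicate, an allele and a slot. Positions follow hg19, the build named in the submitters' processing notes. The counting program, and whether counts are molecules or reads, are not given in the sources used here. Locus names reflect general knowledge of the genes near them, not the files; no annotation of that build, hence no exon or intron, was used. No file at hand holds the element sequences, so none is printed.

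Slots were summed per allele and replicate. Levels are log2 ratios of RNA to DNA after TMM scaling, with 1 count added. Pairs were tested with edgeR 4.0.16 (R 4.3.3), with a block for each allele and replicate because DNA and RNA of a replicate were isolated together, per the labels' protocol. Positions with 3 alternatives were fitted with all 4 elements. DESeq2 1.42.0 and limma 3.58.1 were alternatives, and 13 alternatives were run in all. The scripts were tested on simulated data. Class means over positions used an exact sign-flip test over replicates.

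Named were pairs past the adjusted threshold in edgeR, DESeq2 or limma, the 12 pairs of lowest p-value in each direction with one sign in 3 of 3 replicates, the 4 positions of lowest p-value in each position test, and 3 pairs on each side of the slot minimum. Pairs, lists of loci and tests were chosen with earlier results of these data known.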

Additional observations from a re-analysis of the deposited data

How the results depend on the processing

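Single pairs were imprecise: the median standard error was close to the SD of effects. In pairs with 200 or more DNA slots these were 0.176 and 0.183. Alleles at slot 500 have lost an unknown number of barcodes, and columns may mix replicates in later slots. The pairs called were 2 with DESeq2, 2 with no replicate block (C208222284G beside the deletion), 1 without any one replicate, and 0 without alleles at slot 500, where the deletion was not testable, or from the first 20 slots, an alternative chosen after seeing the data. Pairs at an unadjusted p under 0.05 were 71 without alleles at slot 500, 185 with limma on means per nonzero slot, and 136 to 160 without one replicate. The reference differed from its alternatives at 1 position, C142703669, without the highest slot, with library totals, and without replicate 1 (0 to 1 over replicates left out). From the first 20 slots, 1 position, C21830040 in the PAX1 locus, had a transition 2.01 above its transversions, where all slots gave -0.06.

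The mean effect of transitions was -0.0025 at a minimum of 1 DNA slot. From the first 20 slots, class means were 0.0128 for transitions, 0.0228 and 0.0396 for transversions, 0.0177 and 0.0332 for gain and loss of G or C, and -0.0127 for transition minus transversions. Signs turned from the first 20 slots in 5 of the named pairs that could be fitted there: T102979207A -0.33, A82898667C -0.28, T228326492C -0.086, T21918213A 0.12 and T82114879C 0.019. Beside these, 110 values of counts and class means and 286 of named pairs kept their direction and side of the threshold, or moved by less than the replicate spread. The causes were not tested.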
